A study of Mus musculus with 6 samples.

Results

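The genes described here are 40 genes that mark endothelial cells, the cells that line blood and lymph vessels. They were taken by gene symbol from a list of names, which was chosen with earlier results of these data known. They cover 69 of the 45281 probes of the array, with at least 1 probe for each of the 40 genes. Of these, 30 genes had a probe that was detected on enough arrays to be tested, out of 11145 tested genes in all. A probe counts as detected on an array where at most a small share of its negative controls is as bright (a detection p-value under 0.05), and it was tested if detected on 3 or more of the 6 arrays. Values below are normalized, background-corrected log2 intensities at the brightest tested probe of a gene, and changes are null minus wild type on that scale. Intensities of different probes do not rank genes by level.

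Whole testes of FVB mice at 4 days of age gave RNA for 6 Illumina bead arrays on 1 slide, of which 3 carry the label Foxo1 null and 3 the label wild type. The comparison asks what loss of Foxo1 does to the transcripts of the testis at this age. Foxo1 encodes a forkhead transcription factor restrained by PI3K-AKT signalling, and the study is about spermatogonial stem cells. The labels call the null genotype only "Foxo1 null": they name no allele, no Cre driver and no cell type in which the gene was lost, and they do not say whether testes were pooled. They also do not say that the 3 samples of a group came from separate animals, so p-values measure the spread between these samples, which may be technical.

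Blood vessels of the testis run between the cords and carry oxygen, hormones and immune cells to the interstitium. Endothelial cells are set up by transcription factors of the ETS, SOXF and basic helix-loop-helix families, hold together through cadherin, claudin and immunoglobulin-type junction proteins, and grow under VEGF, angiopoietin, Notch and apelin signals. FoxO1 itself acts in this cell type: mouse embryos that lack it throughout the body die with defective vessels, and in human endothelial cells it raises ANGPT2 and lowers NOS3.

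Arrays detected 44.4% to 47.85% of all probes, each with 43 beads for the median probe, and the values of the tested endothelial genes rested on 23 to 65 beads per array, with a standard error over beads of 2.9% to 9.23% of the signal. Tested probes correlated at 0.974 to 0.987 between arrays (Pearson, across probes of shared design). The array of null replicate 1 correlated with null replicates 2 and 3 at 0.978 and 0.984, and more closely with wild-type replicates 1 and 2, at 0.985 and 0.986. Foxo1 lay on its own group's side on all 6 arrays at both of its probes, but with opposite signs: log2 changes of -1.81 and 3.36 (adjusted p = 0.0273 and 0.00221, limma). The first lost its call with median scaling (adjusted p = 0.0513), with no filter (0.0669) and with any array but null replicate 1 left out (0.0987 to 0.122). Where the probes lie relative to the deleted part of the gene was not analysed here, so they are a limited check of the labels. The tissue label was borne out by Amh, Sox9, Gata4, Inha and Dhh of Sertoli cells, Cyp17a1, Cyp11a1 and Insl3 of Leydig cells and Ddx4 and Dazl of germ cells, each detected on all 6 arrays.

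Vessel genes were clearly present in both groups. Of the 7 genes that define the cell type, Pecam1, Cdh5, Tek, Emcn and Cldn5 were detected on all 6 arrays and Tie1 on 5. Kdr, the main VEGF receptor of endothelial cells, was detected on 2 null arrays and 0 wild-type arrays at its brighter probe and was not tested. Its log2 intensities there were 5.28, 4.77 and 5.16 in null, against 4.80, 4.71 and 5.01 in wild type, with overlapping groups near background.

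None of the 30 tested endothelial genes passed the test over all probes, in either direction (limma, Benjamini-Hochberg, threshold 0.05), where 0.00897% of all tested genes were called higher and 0.162% lower in null. At an unadjusted p under 0.05, 9 were higher and 0 lower in null, against 4.26% of all tested genes higher and 4.76% lower. Values lay above 0 for 26 of the 30, against 52.1% of all tested genes, and the median log2 change was 0.30, against 0.01 over all tested genes. In 9 genes all null arrays lay above all wild-type arrays (6.81% of all tested genes), and in 0 all lay below (8.08%). In RNA of whole tissue, more cells of a type and more RNA per cell cannot be told apart.

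These counts include 3 genes that were not detected on all arrays (Calcrl, Tie1 and Lyl1). A detection filter that is met through null arrays favours values that are higher in null. Among the 27 genes detected on all 6 arrays, 7 were higher at an unadjusted p under 0.05 (3.97% of all genes so detected), 23 had values above 0 (51.6%) and 7 had all null arrays above all wild-type arrays (6.52%). With no filter, all 40 genes entered, 10 were higher at an unadjusted p under 0.05 (4.04% of all genes), 30 had values above 0 (50.7%) and 9 had all null arrays above all wild-type arrays (6.13%). Leaving out 1 array changed the count of 9 to 2 (wild-type replicate 1 left out, 3.40% of all tested genes), 4 (wild-type replicate 2, 4.37%), 4 (null replicate 3, 2.65%) or 5 (null replicate 2, 3.04%). With null replicate 1 left out it was 11 (6.32%), and with wild-type replicate 3 left out 8 (4.44%). It was 14 with array weights and 14 with median scaling, where the share of all tested genes was also larger, at 7.22% and 8.51%. On uncorrected signals the median was 0.18, on the authors' normalized values 0.18, and it was 0.21 when null replicate 3 was left out.

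**Figure D1:**
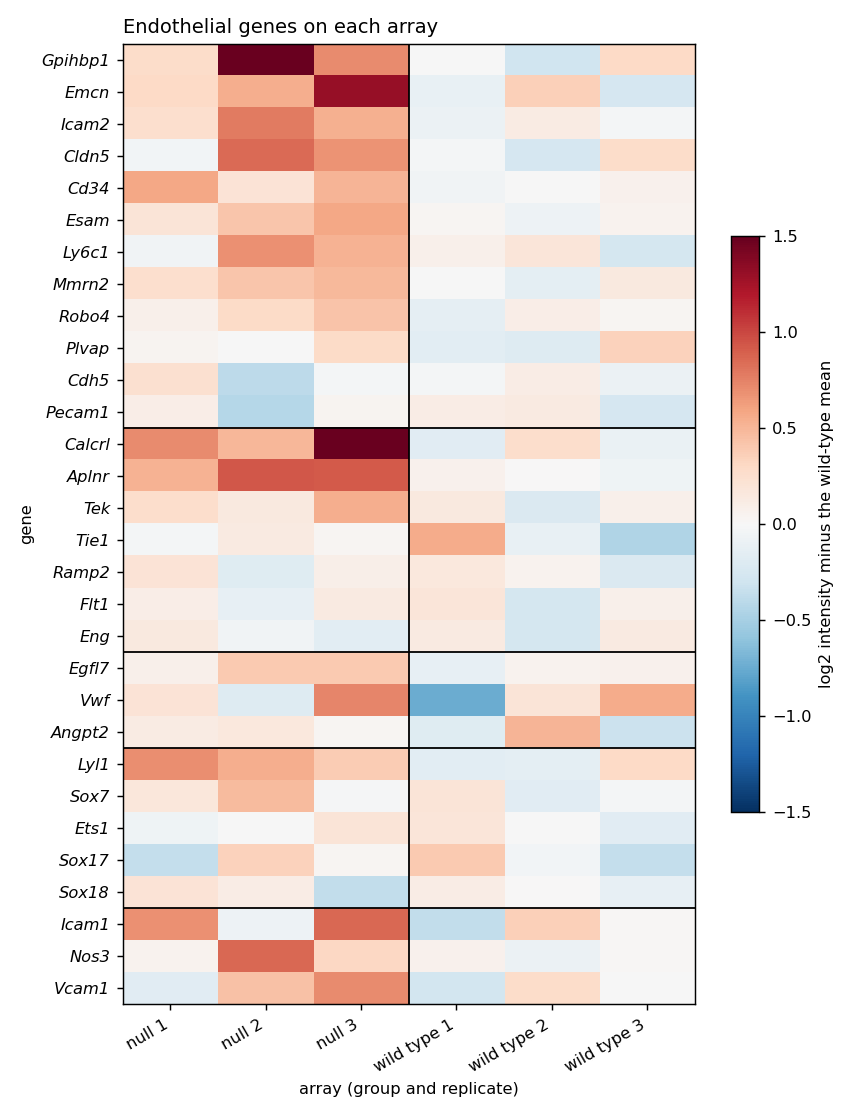
Log2 intensity of each tested endothelial gene (rows, ordered by role and then by change) on each array (columns), as the difference from the wild-type mean of that gene, on a scale from blue (lower) to red (higher). The null columns are redder than the wild-type columns in the upper rows of most blocks, most of all null replicates 2 and 3, while Cdh5, Pecam1, Eng, Ets1 and Sox18 hold both colours on either side.

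Array by array, the median deviation of the 30 genes from their wild-type means was 0.18, 0.32 and 0.41 on null replicates 1, 2 and 3. On the wild-type arrays it was between -0.003 and 0.005. The wild-type deviations of each gene average 0 by definition, so these small values do not measure the spread of wild type. The highest value of a gene fell on null replicate 3 in 11 genes, on null replicate 2 in 7 and on null replicate 1 in 6. The lowest value fell on a wild-type array in 26 of the 30 genes (9, 10 and 7 for replicates 1, 2 and 3). These deviations and counts were not taken over all tested genes, and whether other genes share the pattern across arrays was not tested.

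Surface and junction molecules made up 6 of the 9 genes higher at an unadjusted p under 0.05, and no difference between roles was tested. Of 13 such genes 12 were tested, and 10 had values above 0, with 0 called over all probes and a median change of 0.39. Icam2, an adhesion molecule of resting endothelium that is also found on leukocytes, had log2 intensities of 6.95, 7.46 and 7.22 on null replicates 1 to 3, against 6.61, 6.81 and 6.66 on wild-type replicates 1 to 3. All null arrays lay above all wild-type arrays, and the difference was 0.52 (SE 0.17, adjusted p = 0.399, limma).

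Cd34, a sialomucin of small vessels and of blood progenitors, had 9.02, 8.64 and 8.95 in null, against 8.39, 8.43 and 8.50 in wild type. The wild-type values were tight (SD 0.06, n = 3) and the groups did not overlap, with a difference of 0.43 (SE 0.16, adjusted p = 0.453, limma). Esam, an immunoglobulin-type molecule of endothelial tight junctions and platelets, had 9.78, 10.01 and 10.17 in null, against 9.62, 9.51 and 9.64 in wild type. Again no null array reached down to a wild-type one, and the difference was 0.40 (SE 0.15, adjusted p = 0.504, limma).

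Mmrn2, a matrix protein around endothelial cells that binds the receptor Clec14a, had 7.30, 7.47 and 7.54 in null, against 7.05, 6.91 and 7.20 in wild type. The groups did not overlap (difference 0.38, SE 0.15, adjusted p = 0.507, limma). Its partner Clec14a was detected on 0 arrays of either group.

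Gpihbp1, which holds lipoprotein lipase on the wall of capillaries, had 7.02, 8.22 and 7.46 in null, against 6.75, 6.45 and 7.04 in wild type. Null replicate 1 lay just below wild-type replicate 3, so the groups overlapped, and null replicate 2 stood highest. The difference was 0.82 at this probe (SE 0.30, adjusted p = 0.457, limma) and 0.95 at the second (SE 0.36, adjusted p = 0.477, limma), which showed the same order of the null arrays.

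Emcn, endomucin, a sialomucin of capillaries and veins, had 8.44, 8.70 and 9.46 in null, against 8.04, 8.51 and 7.90 in wild type. The groups overlapped through null replicate 1 and wild-type replicate 2, and the difference was 0.72 (SE 0.28, adjusted p = 0.494, limma). Cldn5, the claudin of endothelial tight junctions, had 8.29, 9.18 and 9.01 in null, against 8.30, 8.08 and 8.61 in wild type. Null replicate 1 sat among the wild-type arrays and the other null arrays above them, with a difference of 0.50 (SE 0.25, adjusted p = 0.633, limma).

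Both of the best known junction genes had values just below 0 at their brighter probes. Cdh5, VE-cadherin, had 9.18, 8.56 and 8.92 in null, against 8.91, 9.06 and 8.87 in wild type, so the null arrays lay on both sides of the wild-type ones. Its change was -0.06 (95% interval -0.48 to 0.36) at this probe and -0.23 (-0.67 to 0.20) at the other. Pecam1, CD31, had 7.36, 6.84 and 7.31 in null, against 7.38, 7.40 and 7.02 in wild type.

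The Pecam1 change was -0.09 (95% interval -0.54 to 0.35) at the brighter probe and 0.30 (-0.11 to 0.72) at the dimmer one, the only tested endothelial gene with probes on opposite sides of 0. With median scaling the changes of Cdh5 and Pecam1 at the brighter probes were 0.07 and 0.04, and the mean over the tested Pecam1 probes was 0.11. Of these 4 intervals, those of both Cdh5 probes and of the brighter Pecam1 probe end below the Esam and Cd34 values (0.40 and 0.43) and that of the dimmer Pecam1 probe holds them, and the difference between genes was not tested. The remaining members of the group were Ly6c1, a surface protein shared with leukocytes (0.39, SE 0.22), Robo4, a roundabout receptor of vessels (0.26, SE 0.16), and Plvap, the diaphragm protein of fenestrated vessels (0.11, SE 0.19), with adjusted p from 0.694 to 0.940 (limma).

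**Figure D2:**
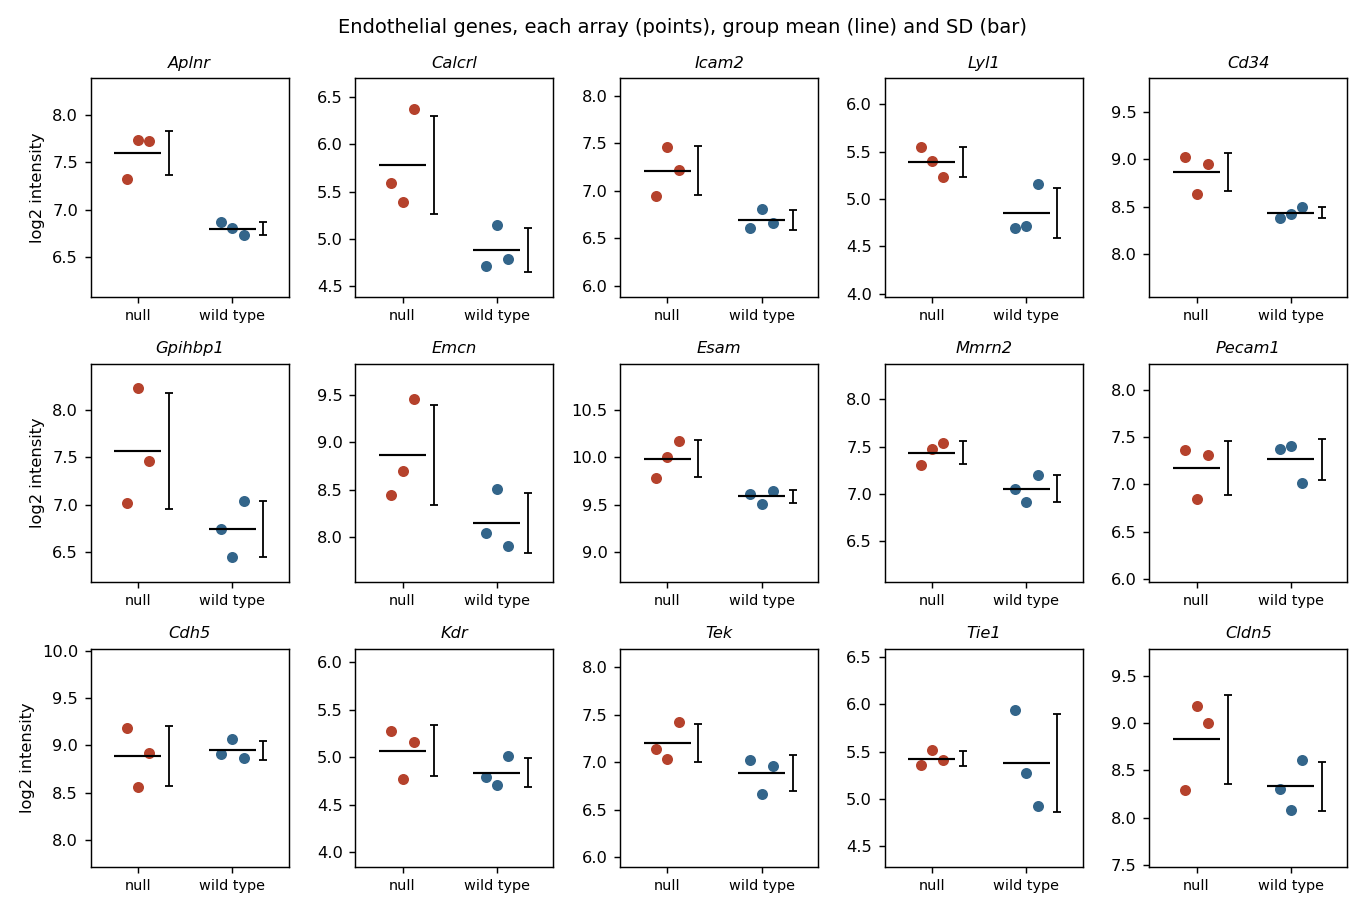
Normalized log2 intensity on each array (points), group mean (line) and SD (bar, n = 3) for the 9 genes with an unadjusted p under 0.05 and the other genes that define endothelial cells, null left and wild type right, each panel spanning the same log2 range. Aplnr, Icam2, Cd34, Esam, Mmrn2, Calcrl, Lyl1 and Tek show separate groups, while those of Pecam1, Cdh5 and Tie1 overlap.

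Among receptors, Aplnr and Calcrl had the 2 smallest p of the 30 genes, and of the 7 tested the median change was 0.05. Aplnr, the G protein-coupled receptor for apelin, which marks sprouting and venous endothelium, had 7.33, 7.74 and 7.72 in null, against 6.87, 6.80 and 6.73 in wild type. All null arrays lay above all wild-type arrays by a gap wider than the spread within wild type. The difference was 0.79 (SE 0.16) or 1.73-fold, with the smallest p of the 30 genes and no call over all probes (adjusted p = 0.152, limma). Under the 11 other settings with all arrays it was 0.47 to 0.92, with an adjusted p between 0.0614 and 0.223 (limma), and it was 0.73 to 0.92 when 1 array was left out. Its ligand gene Apln was detected on 0 arrays.

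Calcrl, the receptor that joins with RAMP proteins to bind adrenomedullin or calcitonin gene-related peptide, had 5.59, 5.39 and 6.37 in null, against 4.72, 5.15 and 4.79 in wild type. It was detected on 3 of 3 null arrays and 0 of 3 wild-type arrays, so it entered the test through its null arrays alone. On the background-corrected scale it was at least 1.56-fold higher in null (adjusted p = 0.336, limma). That size rests on the correction, since the log2 change was 0.29 on the authors' normalized values and 0.31 on uncorrected signals. Its vessel partner Ramp2 had 11.29, 10.91 and 11.18 in null, against 11.25, 11.14 and 10.87 in wild type. The Ramp2 groups overlapped, with a change of 0.04 (95% interval -0.35 to 0.43), and of -0.01 with array weights.

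Of the angiopoietin receptors, Tek, also known as TIE2, had 7.14, 7.03 and 7.43 in null, against 7.02, 6.67 and 6.96 in wild type. Its groups just failed to overlap, with a difference of 0.32 (SE 0.17, adjusted p = 0.666, limma). Tie1, its partner receptor, had 5.36, 5.52 and 5.41 in null, against 5.94, 5.27 and 4.93 in wild type. The null arrays lay within the wild-type range (change 0.05, 95% interval -0.51 to 0.61), and the change was -0.14 with array weights.

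Flt1, the VEGF receptor that acts largely as a decoy, had a change of 0.04 (95% interval -0.35 to 0.42), and Eng, endoglin, the co-receptor for BMP9 of endothelial cells, of -0.02 (-0.41 to 0.37), or 0.11 with median scaling. Null values were 6.87 to 7.13 for Flt1, against 6.74 to 7.17 in wild type. For Eng they were 8.04 to 8.34, against 7.93 to 8.33. The groups of both genes overlapped. Flt4, the VEGF-C receptor of lymphatic vessels, was detected on 0 arrays at each of its 3 probes.

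**Figure D3:**
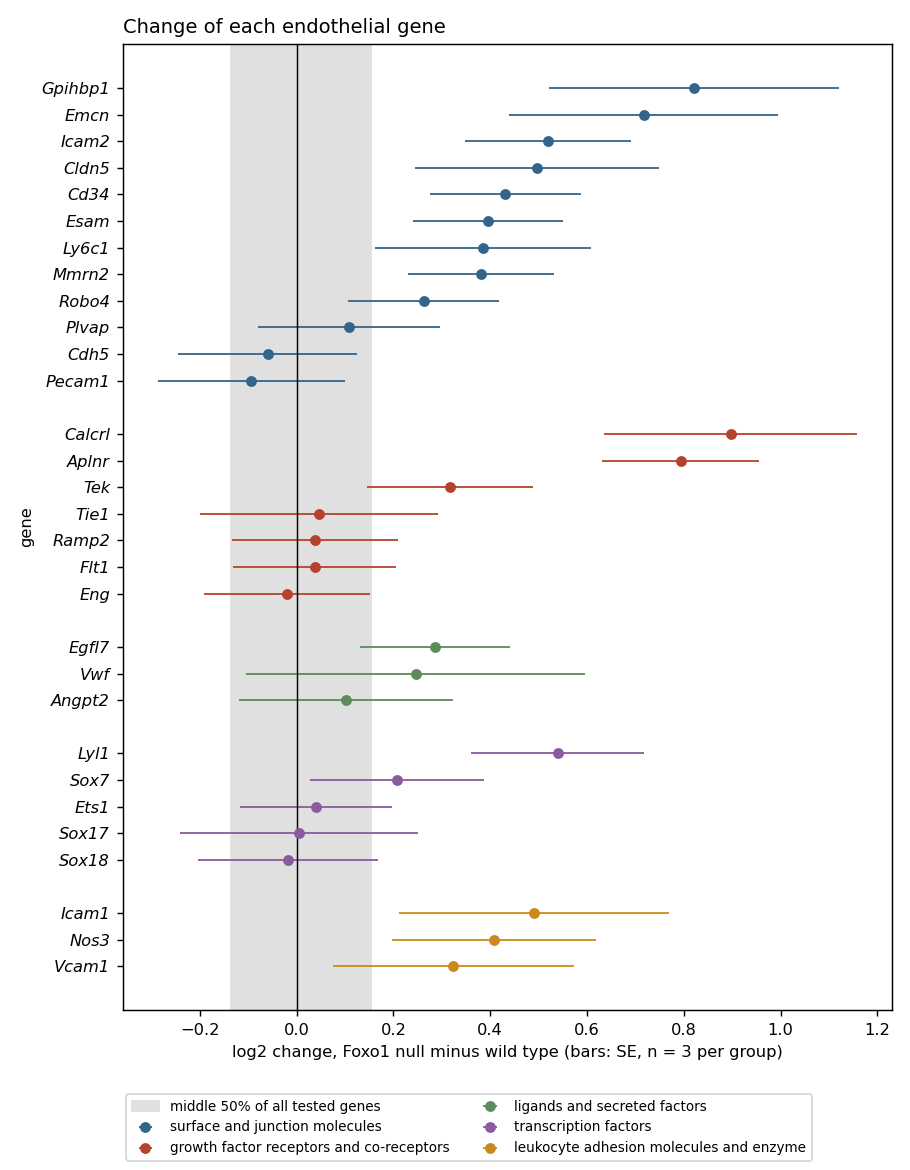
Log2 change (null minus wild type) of each tested endothelial gene at its brightest tested probe, with SE (n = 3 per group), coloured by role; the grey band spans the 25th to 75th percentile of all tested genes, from -0.14 to 0.15. Most surface molecules lie to the right of the band, receptors split between Calcrl and Aplnr far to the right and the rest in or near it, and Ets1, Sox17 and Sox18 lie close to 0.

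The 3 tested secreted factors had positive values from 0.10 to 0.29, none with an unadjusted p under 0.05. Angpt2, the angiopoietin that destabilizes vessels, had 8.15, 8.18 and 8.06 in null, against 7.84, 8.53 and 7.70 in wild type. The null values sat inside the wild-type range, with a change of 0.10 (95% interval -0.40 to 0.61). Egfl7, a matrix protein made by endothelial cells, had 9.92, 10.23 and 10.23 in null, against 9.72, 9.89 and 9.91 in wild type at its brightest probe. The groups were separate there by a narrow margin (0.29, SE 0.15, adjusted p = 0.666, limma), while a second probe gave 0.02 (SE 0.16).

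Vwf, von Willebrand factor, which captures platelets, had 6.27, 5.88 and 6.80 in null, against 5.32, 6.26 and 6.62 in wild type. It spread widely within both groups (0.25, 95% interval -0.55 to 1.04). Dll4, the Notch ligand of arterial and tip cells, was detected on 1 null array and 0 wild-type arrays and was not tested.

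Of 8 transcription factors of endothelial identity 5 were tested, with a median change of 0.04. At an unadjusted p under 0.05, 1 was higher (4.26% of all tested genes). Lyl1, a basic helix-loop-helix factor related to Tal1 that is also made in blood cells, had 5.55, 5.40 and 5.23 in null, against 4.69, 4.71 and 5.15 in wild type. The groups did not overlap (0.54, SE 0.18, adjusted p = 0.399, limma), but the gene is dim, being detected on 3 null arrays and 1 wild-type array, and with the authors' normalized values its change was 0.17. Tal1 itself was detected on 1 null array and 0 wild-type arrays.

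The SOXF factors, which act together in arterial and lymphatic development, were all tested. Sox18 had 10.01, 9.91 and 9.43 in null, against 9.92, 9.81 and 9.68 in wild type, and a change of -0.02 (95% interval -0.44 to 0.41) that was 0.11 with median scaling. Sox17 had changes of 0.005 (-0.56 to 0.57) and 0.20 (-0.16 to 0.56) at its 2 probes, and -0.11 with array weights at the brighter one. Sox7 had 0.21 (-0.20 to 0.62) and 0.25 (-0.31 to 0.81) at its 2 tested probes. For all 3 genes the null and wild-type arrays overlapped at the brightest probe.

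Ets1, an ETS factor of endothelium and lymphocytes, had 9.23, 9.28 and 9.48 in null, against 9.47, 9.29 and 9.12 in wild type, a change of 0.04 (95% interval -0.32 to 0.40). The groups covered nearly the same range. Its relatives Erg and Fli1 were detected on 0 arrays.

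Genes for leukocyte capture and vessel tone had positive values that did not pass. Icam1, the ligand of leukocyte integrins that inflammation induces, had 7.15, 6.39 and 7.33 in null, against 6.09, 6.83 and 6.48 in wild type. Null replicates 1 and 3 lay above all wild-type arrays and null replicate 2 among them (0.49, SE 0.28, adjusted p = 0.686, limma). Vcam1, another ligand of leukocyte integrins, had 8.90, 9.52 and 9.78 in null, against 8.80, 9.36 and 9.07 in wild type, with overlapping groups (0.32, SE 0.25).

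Nos3, endothelial nitric oxide synthase, had 6.02, 6.82 and 6.27 in null, against 6.03, 5.88 and 5.98 in wild type at its brightest probe. Null replicate 2 stood far above and null replicate 1 among the wild-type arrays, with a change of 0.41 (SE 0.21, adjusted p = 0.642, limma). The other 2 tested Nos3 probes gave 0.24 (SE 0.19) and 0.03 (SE 0.21). Selp, P-selectin, was detected on 2 null arrays and 0 wild-type arrays, and Sele, E-selectin, on 0 arrays.

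Promoters were read for the 9 genes with an unadjusted p under 0.05, since these lay on the same side of 0. Of the 9, Calcrl, Cd34, Emcn and Lyl1 matched RefSeq's promoter table (GRCm38.p6, 250 bases before to 50 after the gene's start), and over all endothelial genes 22 of 40 matched. They lie at chr2:84425217-84425516 (minus strand), chr1:194938571-194938870 (plus), chr3:137340828-137341127 (plus) and chr8:84701207-84701506 (plus), and are given here 5′ to 3′ on the gene's strand. Capitals mark matches to GTAAACA (a forkhead motif), CCGGAAG (an ETS motif) or AACAATG (a SOX motif) on either strand.
Calcrl: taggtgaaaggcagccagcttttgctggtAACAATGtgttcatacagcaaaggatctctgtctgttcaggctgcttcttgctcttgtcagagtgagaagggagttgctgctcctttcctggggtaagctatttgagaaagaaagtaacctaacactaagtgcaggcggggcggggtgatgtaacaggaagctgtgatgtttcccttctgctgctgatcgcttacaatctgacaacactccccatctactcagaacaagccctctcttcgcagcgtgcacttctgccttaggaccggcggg
Cd34: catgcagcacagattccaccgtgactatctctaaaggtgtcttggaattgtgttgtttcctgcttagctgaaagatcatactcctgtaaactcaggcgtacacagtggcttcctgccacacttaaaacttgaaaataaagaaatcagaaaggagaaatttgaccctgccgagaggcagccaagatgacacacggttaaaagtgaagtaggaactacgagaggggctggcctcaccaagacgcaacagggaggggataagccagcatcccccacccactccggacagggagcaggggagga
Emcn: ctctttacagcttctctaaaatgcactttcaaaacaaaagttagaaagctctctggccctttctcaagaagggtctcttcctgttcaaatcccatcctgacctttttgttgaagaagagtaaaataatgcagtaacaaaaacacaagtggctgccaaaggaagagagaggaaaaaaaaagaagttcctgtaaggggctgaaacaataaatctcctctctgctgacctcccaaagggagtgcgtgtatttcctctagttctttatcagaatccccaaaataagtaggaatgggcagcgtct
Lyl1: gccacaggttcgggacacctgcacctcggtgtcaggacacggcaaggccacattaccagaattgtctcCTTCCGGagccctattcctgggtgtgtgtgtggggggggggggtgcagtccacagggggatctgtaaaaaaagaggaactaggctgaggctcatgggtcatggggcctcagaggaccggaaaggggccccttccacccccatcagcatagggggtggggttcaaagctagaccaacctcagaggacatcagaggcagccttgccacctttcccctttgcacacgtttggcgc
The forkhead letters stood in 0 of the 22 endothelial promoters, against 4.05% of 27025 genes in the table. The ETS letters stood in 1 (Lyl1, on the minus strand, its leftmost base at -182 from the start), or 4.55%, against 9.93% of all genes, and the SOX letters in 2 (Calcrl at -221, and Erg), or 9.09%, against 4.33%. No motif overlapped another. A match is a run of letters, and its absence from these windows says nothing of sites elsewhere.

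Other genes of vessels, taken from further lists, had medians nearer 0 or of similar size. Of 36 other endothelial genes 26 were tested, 0 passed over all probes, and the median change was 0.04. At an unadjusted p under 0.05, 3 were higher and 3 lower, against 4.26% and 4.76% of all tested genes. The 3 with the smallest p were Foxc2, a forkhead factor of lymphatic valves and mesenchyme (-1.56, SE 0.22, adjusted p = 0.055), Gata2, a zinc finger factor of endothelium and blood (1.45, SE 0.27, adjusted p = 0.12), and Arhgef15, a guanine exchange factor of endothelial cells (-0.70, SE 0.16, adjusted p = 0.203), all limma. The calls of the first 2 turned on the settings: Foxc2 passed under 7 of 11 alternatives (adjusted p from 0.00285 to 0.131, limma) and Gata2 under 4 of 11 (0.0123 to 0.242) and without null replicate 1 (0.0195). Of the 32 VEGF, angiopoietin, Notch and TGF-beta partners 25 were tested, with a median of 0.11. At an unadjusted p under 0.05, 1 was higher and 0 lower, against the same shares of all tested genes (4.26% and 4.76%). Nrp2, a VEGF co-receptor, was at 0.60 (SE 0.25), Vegfc, the lymphatic growth factor, at 0.62 (SE 0.28), and Acvrl1, the endothelial BMP9 receptor, at 0.33 (SE 0.19), none of them called (adjusted p from 0.54 to 0.685, limma).

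Of 10 lymphatic markers 8 were tested, 0 passed over all probes and 7 had values above 0, with a median of 0.27. At an unadjusted p under 0.05, 0 were lower (4.76% of all tested genes) and 3 higher (4.26%). They were Ccl21a, a chemokine (0.85, SE 0.22), Lyve1, a hyaluronan receptor shared with macrophages (0.90, SE 0.28), and Mmrn1 (0.70, SE 0.25), with adjusted p from 0.272 to 0.451 (limma). The groups of Ccl21a were separate. Those of Lyve1 were barely so (lowest null value 7.73, highest wild-type value 7.71), as were those of Mmrn1 (5.955 against 5.951). Prox1, the factor that defines lymphatic identity, was not tested for lack of detection.

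Markers of other cell types also differed in value between the null and wild-type arrays, without a call over all probes in any list as fitted here. Of the 14 tested of 19 macrophage and leukocyte genes, 7 were higher and 1 lower at an unadjusted p under 0.05 (4.26% and 4.76% of all tested genes). The 14 had a median of 0.55, with a summed intensity of 3245 to 6790 on null arrays and 2859 to 3345 on wild-type arrays. On null replicates 1, 2 and 3 these genes stood at a mean score of 0.16, 0.50 and 0.81, and the endothelial genes at 0.19, 0.31 and 0.41. Cd52, a small surface protein of leukocytes, was at 11.14 on null replicate 3 and at 6.52 to 7.56 on the other arrays. Without it, a choice made after seeing the data, the scores were 0.20, 0.59 and 0.57 and the sums 3129 to 4530 in null and 2740 to 3217 in wild type. C1qc, Mrc1 and Laptm5 had the smallest p (0.86, 0.64 and 0.56, adjusted p from 0.188 to 0.333, limma), and Ptprc, which defines leukocytes, was not tested for lack of detection. Lyl1, Icam2, Cd34 and Ly6c1 are also made in blood cells, and the part of blood cells in their values was not tested.

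Of platelet genes 3 of 14 were tested, with a summed intensity of 550 to 1025 in null and 325 to 493 in wild type. Pf4, platelet factor 4, was at 1.16 (SE 0.29, adjusted p = 0.247, limma) with separate groups, Gp9 at 0.14 and Nfe2 at -0.17. Itga2b, which defines the lineage, was not tested. Esam, Vwf and Selp are also made in platelets or their precursors, and the part of these in their values was not tested. Of 14 red cell genes 7 were tested, with sums of 16109 to 30097 in null and 16089 to 24830 in wild type and a median of -0.06. Most of these sums is Hba-a1, whose change was 0.17. Epor, the erythropoietin receptor, was detected on 3 null and 0 wild-type arrays, so it passed the filter through its null arrays alone, and it was at least 1.14-fold higher in null on this scale, with a log2 change of 0.15 on the authors' normalized values. Hbb-b2, a haemoglobin chain, was at 0.37 and Slc4a1, the band 3 anion exchanger, at -0.42.

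Vessel wall and connective tissue genes showed values of similar size. Of 18 pericyte and smooth muscle genes 16 were tested, with a median of 0.44. At an unadjusted p under 0.05, 7 were higher and 1 lower, against 4.26% and 4.76% of all tested genes. Sums were 47269 to 67442 in null and 36432 to 44437 in wild type, and most of them is Acta2, whose change was 0.48. Actg2 (1.42, SE 0.40) and Myh11 (0.78, SE 0.27), contractile proteins of smooth muscle, had values above 0, and Mcam, an adhesion molecule of pericytes and endothelium, below it (-0.48, SE 0.15). Also below 0 were Anpep (-0.48), Abcc9 (-0.16), Notch3 (-0.07) and Cspg4 (-0.04), while 11 of the 16 lay above it. Which cells gave these transcripts was not tested. Of 14 interstitial fibroblast genes 12 were tested, with a median of 0.32 and sums of 46974 to 58953 in null and 39865 to 49465 in wild type. The largest part of these sums is Dcn, whose change was 0.24. The matrix genes Lum (0.87, SE 0.29), Col3a1 (0.52, SE 0.20) and Col1a1 (0.53, SE 0.23) had the smallest p. None of the genes given with an SE was called (adjusted p from 0.321 to 0.558, limma), except Actg2 without null replicate 1 (0.0333).

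Among inflammatory response genes 7 of 16 were tested, and 1 was higher at an unadjusted p under 0.05 (4.26% of all tested genes). The median was 0.17, with sums of 5414 to 6370 in null and 5326 to 6427 in wild type. Tnfaip3, a brake on NF-kappaB signalling, was at 0.70 (SE 0.28), Cxcl1, a chemokine, at 0.36 and Irf1 at -0.23. Tnf, Il1b and Il6 were not tested for lack of detection.

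Germ cell genes had values on the other side of 0. All 13 tested of 16 had values below 0, with a median of -0.78, and sums of 2534 to 3893 in null and 5143 to 9665 in wild type. Dppa4 (-2.27), Dnd1 (-1.04) and Nanos3, which was detected on 0 null arrays, had the smallest p (adjusted p from 0.0714 to 0.0907, limma). Under the 11 alternatives Dppa4 was called lower in 6 and Dnd1 in 5, and Nanos3 in 2 of 10, and Dppa4 also without null replicate 1. Sertoli cell genes had a median of 0.03 over 11 tested of 15, with sums of 77527 to 98693 in null and 79096 to 90824 in wild type (Rhox5 -0.87, Tjp1 -0.30, Fshr 0.18, the last -0.05 as a mean over its probes). Leydig cell genes had a median of -0.21 over 8 tested of 11, with sums of 8682 to 11853 in null and 10041 to 16635 in wild type (Star -0.81, Cyp17a1 -0.91, Hsd17b3 -0.24).

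Genes of epididymis and rete epithelium had a median of 0.81 over 10 tested of 15, with sums of 26655 to 35930 in null and 20595 to 32344 in wild type. Most of these sums is Defb19, a defensin whose change was 0.04. Without it, a choice made after seeing the data, the other 9 genes summed to 2124 to 8410 in null and 1771 to 2236 in wild type. The smallest p were those of Cdh16 (2.47), Krt7 (1.09) and Krt19 (1.49), and Cdh16 was called higher with the replicate block (adjusted p = 0.0312, limma) and without null replicate 1 (0.0199). On null replicates 1, 2 and 3 the mean score of these genes was 0.30, 1.68 and 1.19. The part of these other cell types, or of a smaller share of germ cell RNA, in the endothelial values was not tested.

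**Figure D4:**
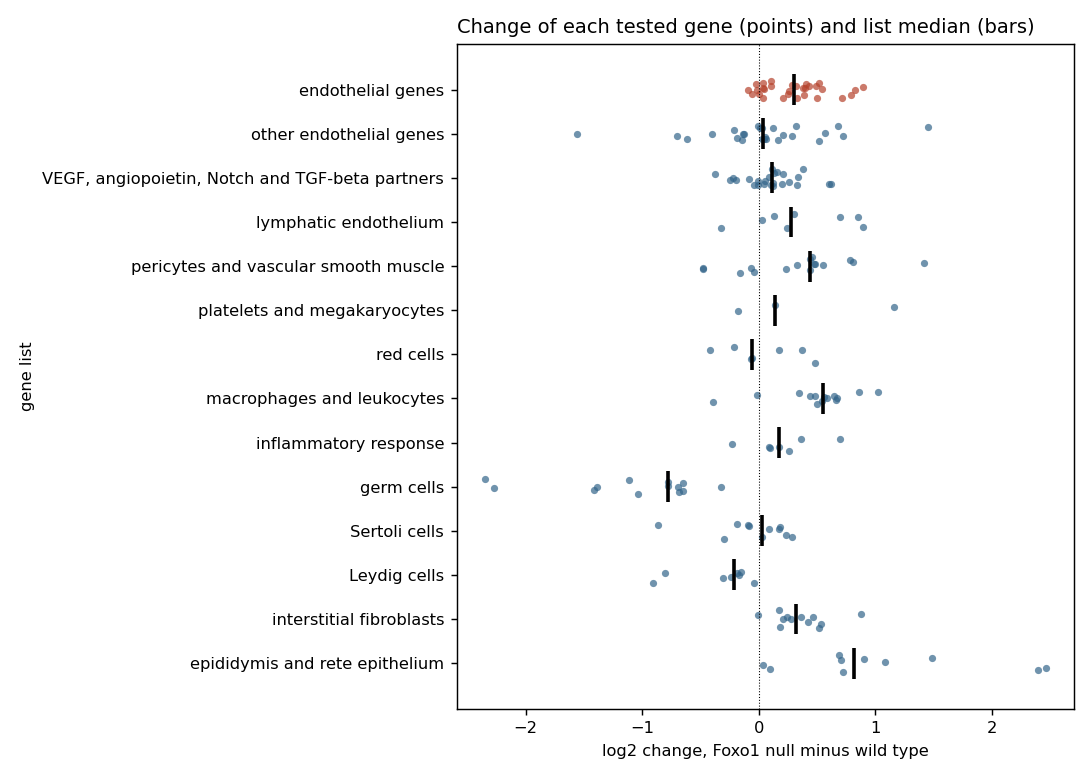
Log2 change (null minus wild type) of each tested gene (points, 1 probe per gene) in the endothelial genes and 13 further lists, with the list median as a bar. Calcrl, Epor, Pax8 and Nanos3, each detected on 0 arrays of 1 group, are drawn at their fitted differences, which are not exact. The endothelial genes have a median of 0.30, near the medians of the lymphatic (0.27) and interstitial fibroblast (0.32) lists. The medians of the other endothelial genes (0.04) and of the VEGF, angiopoietin, Notch and TGF-beta partners (0.11) are nearer 0, and the germ cell list lies apart at -0.78.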

How the data were processed

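Total RNA of testes was hybridised to Illumina bead arrays. The deposited scanner table holds, per the file headers, a mean bead intensity, its bead standard error, bead number and detection p-value for 45281 probes, neither normalized nor background-subtracted. A second deposited table holds the authors' normalized intensity and served as an alternative. The submitters' processing notes name BeadStudio, with no version or settings, and the genome build is not given in the sources used here.

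Intensities were background-corrected and quantile-normalized with limma 3.58.1 (R 4.3.3, neqc, offset 16), giving log2 values in which changes of dim probes depend on the offset. Testing was limited to the 20597 probes with a detection p-value below 0.05 on 3 or more of the 6 arrays. Null minus wild type was fitted with lmFit and eBayes, without covariates, two-sided, with Benjamini-Hochberg adjustment over all tested probes and 95% intervals from the same fit. The script was tested on simulated data. Each gene was represented by its tested probe with the highest mean. Gene names came from the platform's annotation, in which 34885 had 1 gene symbol, 18 several and 10378 none. A probe undetected in 1 group has a bound only, from the bright group's mean against the higher of the dim value and the lowest detected value per array. Summed intensities are sums of the normalized values on the linear scale, so the brightest genes of a list weigh most in them. Scores are mean log2 differences from the wild-type mean.

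Every endothelial gene is accounted for. Those with an unadjusted p under 0.05 and the genes that define the cell type are given on every array, and 3 genes with the smallest p are named per further list. Others given on every array were picked after their values were seen. The members and lists were chosen with earlier results of these data known, and no list was tested as a set.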

Additional observations from a re-analysis of the deposited data

How the results depend on the processing

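No endothelial gene was called in either direction under any of the 11 alternatives or with any 1 array left out. The count higher at an unadjusted p under 0.05 was 14 with median scaling (8.51% of all tested genes), 14 with array weights (7.22%), and 2 to 11 with 1 array left out (2.65% to 6.32%), against 4.26% as reported, while the count lower was 0 throughout. Endothelial genes whose groups were separate with null higher numbered 8 to 15 with 1 array left out. The share of all tested genes separate in that direction was 10.3% to 15.8%, against 6.81% as reported. With wild-type replicate 3 left out, 1 endothelial gene was separate in the other direction, and the share of all tested genes was not taken for that count. The median change was 0.18 on uncorrected signals, 0.18 on the authors' normalized values, 0.43 with median scaling and 0.21 to 0.35 with 1 array left out. Median scaling moved the median of all tested genes to 0.13, and the endothelial median lay 0.30 above that. The cause of these moves was not tested.

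Genes near 0 turned sign. With median scaling Cdh5 was at 0.066, Eng 0.11, Pecam1 0.035 and Sox18 0.11. With cyclic loess Sox17 was at -0.0058. With array weights Ramp2 was at -0.0090, Sox17 -0.11 and Tie1 -0.14. Averaging probes gave Pecam1 0.11 and Fshr -0.054.

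With 1 array left out the values ranged for Angpt2 from -0.058 to 0.35, Cdh5 from -0.21 to 0.10, Eng from -0.15 to 0.048, Ets1 from -0.044 to 0.13, Flt1 from -0.092 to 0.13, Pecam1 from -0.22 to 0.072, Ramp2 from -0.071 to 0.15, Slc4a1 from -0.86 to 0.095, Sox17 from -0.18 to 0.20, Sox18 from -0.13 to 0.16, Tie1 from -0.18 to 0.33, Vwf from -0.13 to 0.53.

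Replicate numbers follow the order of the arrays on the slide, since the sample titles give none, so they cannot show whether samples were paired. Deviations of same-numbered arrays correlated at 0.158, -0.096 and 0.106, and those of different-numbered arrays at -0.179 to 0.09. With the replicate block the count higher at an unadjusted p under 0.05 was 7 and the smallest adjusted p 0.201 (Aplnr, limma). Of 1177 single-gene values over all settings, 1109 kept their direction and side of the threshold. Bead arrays set no count of molecules, and signals near background limit Calcrl, Lyl1 and Tie1 most.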
